A study of Mus musculus with 4 samples.

Results

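The mouse mitochondrial chromosome encodes 13 proteins of the respiratory chain. The 6 described here are the mRNAs for subunits outside complex I: mt-Cytb of complex III, mt-Co1, mt-Co2 and mt-Co3 of complex IV, and mt-Atp6 and mt-Atp8 of complex V. They were chosen by gene identity and not by their values, though with earlier results of these data known. All 6 are among the 15746 genes of the deposited table. The other 7 mitochondrial mRNAs encode complex I subunits and serve for comparison.

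The values came from 4 RNA-sequencing libraries of adult WT (wild-type) mouse heart, with no allele or agent that sets the animals apart. The 2 libraries labelled isolated mitochondria were made from the heart homogenate that stayed in solution at low centrifugal force and was pelleted at higher force, then treated with digitonin, a detergent that opens cholesterol-rich membranes, and RNase A. The 2 rest libraries were made from the low-force pellet of tissue debris. The rest fraction also held mitochondrial mRNA: the 6 mRNAs made up 5.88% and 5.19% of its counts, beside 1.63% and 6.15% in the mitochondrial libraries. The detergent, the RNase and a shortened RNA fragmentation are described for the mitochondrial samples only, so their part in any difference cannot be told apart from the fraction itself. The labels do not say that the libraries of a fraction came from separate animals, and p-values then measure only the spread between these samples, which may be technical.

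Complex III passes electrons from ubiquinol to cytochrome c, complex IV passes them on to oxygen, and complex V uses the proton gradient built by the chain to make ATP. Each is assembled from a few subunits made inside the mitochondrion and many that are encoded in the nucleus and imported. The mitochondrial chromosome is transcribed as long precursors that are cut, mostly at the tRNAs between the genes, into separate mRNAs without introns. Heart muscle is dense in mitochondria and takes most of its ATP from this chain.

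All 6 genes lie on the plus strand of the mitochondrial chromosome of GRCm38, each as 1 protein-coding exon. mt-Cytb (ENSMUSG00000064370, chrM:14145-15288, 1144 bases) encodes cytochrome b, which holds the ubiquinol sites of complex III. It lies between the tRNA genes mt-Te, on the other strand, and mt-Tt. mt-Co1 (ENSMUSG00000064351, chrM:5328-6872, 1545 bases) encodes the catalytic core of complex IV with the site that reduces oxygen. mt-Co2 (ENSMUSG00000064354, chrM:7013-7696, 684 bases) encodes the subunit that accepts electrons from cytochrome c. mt-Co3 (ENSMUSG00000064358, chrM:8607-9390, 784 bases) encodes the remaining core subunit. mt-Atp6 (ENSMUSG00000064357, chrM:7927-8607, 681 bases) encodes subunit a, which forms the proton channel of complex V beside the rotating ring. mt-Atp8 (ENSMUSG00000064356, chrM:7766-7969, 204 bases) encodes a small membrane subunit of the stator.

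mt-Atp8, mt-Atp6 and mt-Co3 overlap one another, and a read that lies across such a border belongs to 2 genes. The authors excluded reads overlapping several genes, so these borders bear on the values of the 3 mRNAs. The transcript sequences of GENCODE M21 give the borders on the plus strand. In the first sequence, chrM:7912-7984, capitals mark the 43 bases read in both the mt-Atp8 and the mt-Atp6 frame. In the second, chrM:8587-8627, the capital marks the single base that ends mt-Atp6 and starts mt-Co3.

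mt-Atp8/mt-Atp6: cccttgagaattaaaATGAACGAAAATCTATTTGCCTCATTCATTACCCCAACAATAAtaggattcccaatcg
mt-Atp6/mt-Co3: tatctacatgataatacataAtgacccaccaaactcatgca

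The 3′ ends differ in how much of the stop codon the chromosome itself carries. In the last 18 bases of each gene below, capitals mark the stop codon or the part of it that is encoded; where only T is encoded, the rest is known to be supplied by the poly(A) tail, so that these mRNAs need that tail for a complete reading frame. mt-Cytb and mt-Co3 were of this kind, and the other 4 ended in an encoded TAA.

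mt-Cytb: tactaaaattatatccaT
mt-Co3: tttattgatgaggatctT
mt-Co1: tatgtaaaagtaaaaTAA
mt-Co2: tctgcttcaataattTAA
mt-Atp6: ctacatgataatacaTAA
mt-Atp8: tcattaccccaacaaTAA

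The deposited values are read counts divided by a size factor of each library and rounded, called normalized counts below. They summed to 183395941 in mitochondrial replicate 1 and 81928351 in replicate 2, against 6956699 and 8584617 in the rest replicates. In mitochondrial replicates 1 and 2 a single read was worth 3.87 and 2.55 normalized counts, and 100% of their values lay on multiples of these steps after rounding. In the rest libraries every whole number up to 298 and 369 was taken, so a read was worth at most 1 normalized count. The least covered of the 6 mRNAs, mt-Atp8, rested on 10128 reads in mitochondrial replicate 1 and on at least 4942 in rest replicate 1, so read counting added little to the spread between libraries. Mitochondrial replicate 1 stood apart in its rRNA, which made up 96.8% of the counts of the mitochondrial chromosome, against 88.2% in replicate 2 and 83.2% and 86.5% in the rest libraries.

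Marker lists of other cells and of the nucleus also moved with the fraction, and are given here against all genes tested, of which 27.7% had both mitochondrial values above both rest values and 33.4% both below. Of 8 cardiomyocyte markers, 6 lay above and 1 below without overlap, with a median log2 fold change of 0.87. Their sum, 212511 to 286826 normalized counts in mitochondrial and 211746 to 240801 in rest libraries, was mostly Myh6, the heavy chain of heart myosin, and hid differences such as that of the thin-filament gene Tnnt2, at 47913 and 33524 against 11712 and 10145. Fibroblast markers were above without overlap in 5 of 6 (median 0.97) and macrophage markers in 4 of 6 (median 0.89). Endothelial markers were below in 5 of 6 (median -0.80), erythroid markers in 5 of 5 (median -2.09) and smooth muscle markers in 2 of 4 (median -0.90). The endothelial and the smooth muscle list each had 1 marker above without overlap. In limma's test, described below, 0 genes of the cardiomyocyte, endothelial, fibroblast, macrophage and erythroid lists passed after adjustment, when 2.16% of all genes were called higher and 1.39% lower. Of the smooth muscle list 1 of 4 was called lower. At an unadjusted p under 0.05 in limma, 1718 of all 12150 genes tested were higher and 1965 lower. At that threshold 6 of 8 cardiomyocyte markers were higher and 1 lower, and 1 of 6 endothelial markers was higher and 5 lower. Fibroblast markers were higher in 1 of 6 and macrophage markers in 3 of 6, and 0 of 5 erythroid markers passed. Of 4 smooth muscle markers, 1 was higher and 2 were lower. Nuclear RNAs summed to 8760 to 13660 in mitochondrial and 43200 to 45717 in rest libraries, with 4 of 5 below without overlap and 1 of 5 called lower. Of 5 smooth muscle and pericyte markers listed, 4 were in the deposited table, which holds no gene at 0 in all libraries. Erythroid markers were lowest in mitochondrial replicate 1, at a sum of 50, and fibroblast markers highest there, at 8382. The part of these lists in the results below was not tested. In such fractions of bulk tissue, the number of cells of a type, their RNA per cell and the fractionation with its treatments cannot be told apart.

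All 6 mRNAs were 8.32 to 11.3 times as high in the mitochondrial as in the rest fraction, as ratios of the mean normalized counts, and both mitochondrial values lay above both rest values in 6 of 6, against 27.7% of all genes tested. mt-Co2, mt-Atp6 and mt-Atp8 rose, passing an adjusted p of 0.05 in limma's moderated test across 12150 genes. mt-Cytb, mt-Co1 and mt-Co3 had fold changes of the same range and did not pass. The 3 of 6 stand beside 2.16% of all genes tested that were called higher; 1.39% were called lower. These folds hold for the deposited scaling, and under scalings that count the mitochondrial RNA itself they shrink or turn, as given below.

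For complex III, mt-Cytb had 731076 normalized counts in mitochondrial replicate 1 and 1296162 in replicate 2, against 105192 and 114597 in rest replicates 1 and 2. Both mitochondrial libraries were high, replicate 2 more so, and the rest libraries lay close together. The log2 fold change on the log2(normalized count + 1) scale was 3.15 ± 0.72 (SE, n = 2 per fraction, limma adjusted p = 0.0717).

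For complex IV, mt-Co1 had 1389743 and 2221779 normalized counts in mitochondrial replicates 1 and 2, against 195854 and 198485 in the rest replicates. It had the highest counts of the 6 in every library, and its 2 rest values were the closest pair of any of them. The log2 fold change was 3.16 ± 0.89 (SE, n = 2 per fraction, limma adjusted p = 0.103). mt-Co2 was measured at 220411 and 385874 in the mitochondrial and at 28834 and 31087 in the rest libraries. Its log2 fold change was 3.28 ± 0.48 (SE, limma adjusted p = 0.0469), just inside the threshold. mt-Co3 was measured at 216469 and 427520 in the mitochondrial and at 32127 and 45287 in the rest libraries. Its replicates were farther apart than those of any other of the 6, in both fractions. The log2 fold change was 3.0 ± 0.56 (SE, limma adjusted p = 0.0574), just outside the threshold.

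For complex V, mt-Atp6 had 401470 and 636960 normalized counts in mitochondrial replicates 1 and 2, against 41947 and 49931 in the rest replicates. It had the highest fold change of the 6, with a log2 value of 3.47 ± 0.54 (SE, n = 2 per fraction, limma adjusted p = 0.0493). mt-Atp8, the shortest of the 6 mRNAs, was measured at 39226 and 68247 in the mitochondrial and at 4942 and 6271 in the rest libraries. Its log2 fold change was 3.22 ± 0.37 (SE, limma adjusted p = 0.0427). The fractions did not overlap for either gene, and leaving out any library ended the call of all 3 mRNAs that passed, with 1 library left in a fraction and log2 values between 2.82 and 3.80.

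**Figure D1:**
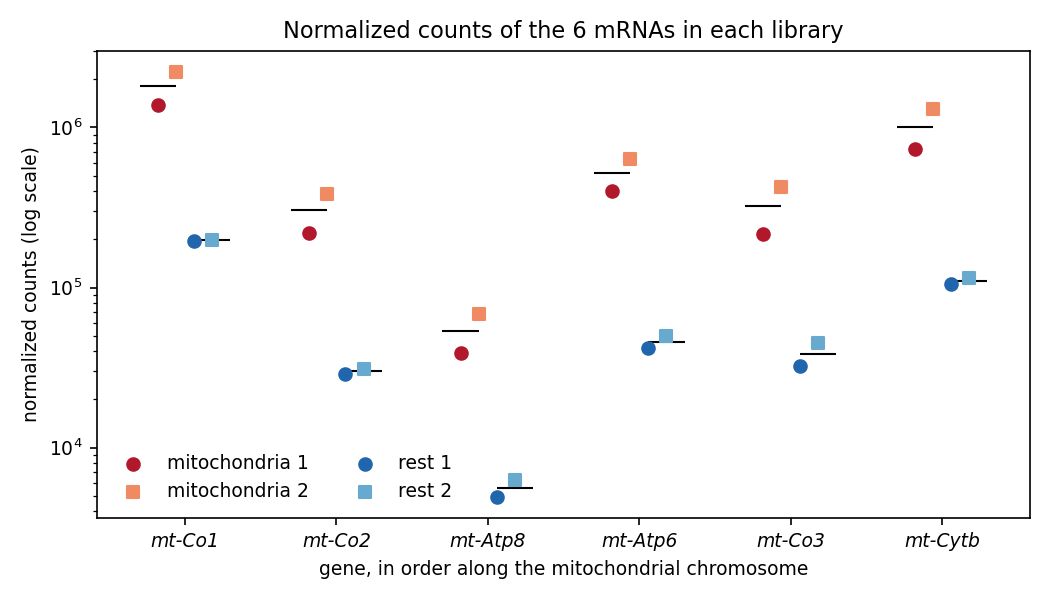
Normalized counts on a log axis for each of the 6 mRNAs in the 2 mitochondrial (red) and 2 rest (blue) libraries, circles for replicate 1 and squares for replicate 2, with black bars at the mean of each fraction. Every mitochondrial point lies above both rest points of its gene, and mitochondrial replicate 2 lies above replicate 1 for all 6.

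The 6 fold changes differed little from one another beside their errors: they spanned 3.0 to 3.47 on the log2 scale, with standard errors of 0.37 to 0.89. Ranked among all genes tested, they held places 26 (mt-Atp6), 37 (mt-Co2), 42 (mt-Atp8), 46 (mt-Co1), 47 (mt-Cytb) and 55 (mt-Co3). The 3 that passed had the higher fold changes and the smaller standard errors, 0.37 to 0.54 against 0.56 to 0.89. The trend in the limma model ties the error to the level of a gene, and mt-Co1, the most abundant, had the smallest within-fraction SD of the 6 (0.34 on the log2 scale) and the largest standard error (0.89). Without the trend, mt-Co1 passed (adjusted p = 0.0493) with mt-Atp6 (0.0439), and mt-Co2 and mt-Atp8 did not; 0.198% of all genes were then called higher. The 7 complex I mRNAs had log2 fold changes of 2.85 to 3.56 with 3 of 7 called, so the 6 lay within their range. The medians were 3.19 for the 6, 3.41 for the 7 and -0.14 for all genes tested.

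Replicate 2 was above replicate 1 for all 6 mRNAs in both fractions, but by different factors. In the mitochondrial fraction the ratio was 1.59 for mt-Atp6, 1.60 for mt-Co1, 1.74 for mt-Atp8, 1.75 for mt-Co2, 1.77 for mt-Cytb and 1.97 for mt-Co3. In the rest fraction it was 1.01 for mt-Co1, 1.08 for mt-Co2, 1.09 for mt-Cytb, 1.19 for mt-Atp6, 1.27 for mt-Atp8 and 1.41 for mt-Co3. The neighbours mt-Atp6 and mt-Co3, which share a base, thus had the lowest and the highest ratio of the 6 in the mitochondrial libraries.

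The size of the fold change, and its sign, rested on what the libraries were scaled to. Genes of the mitochondrial chromosome took 97.6% and 93.5% of the counts in the mitochondrial and 63.2% and 67.5% in the rest libraries, and size factors set on the typical gene leave that excess in the values. Scaled to the total without the mitochondrial chromosome, the log2 fold changes were 2.13 to 2.60, and 4 of 6 passed as higher, against 1.06% of all genes. Scaled to the library total they were -0.99 to -0.52, and scaled to the total of the mitochondrial chromosome -1.54 to -1.07, with 0 of 6 passing in either direction, also at an unadjusted p under 0.05. Under the library total 0.0165% of all genes were called higher and 98.9% lower, and under the chromosome total 0.0165% and 99.4%. These scalings move the median of all genes as well, from -0.14 to -3.93 and -4.43. A scaling multiplies all genes of a library by the same factor, so it moves the 6 and the median of all genes together. The distance between the median of the 6 and that of all genes was therefore bound to change little. It was 3.08 to 3.33 under the 6 scalings compared, which is no test of the difference.

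**Figure D2:**
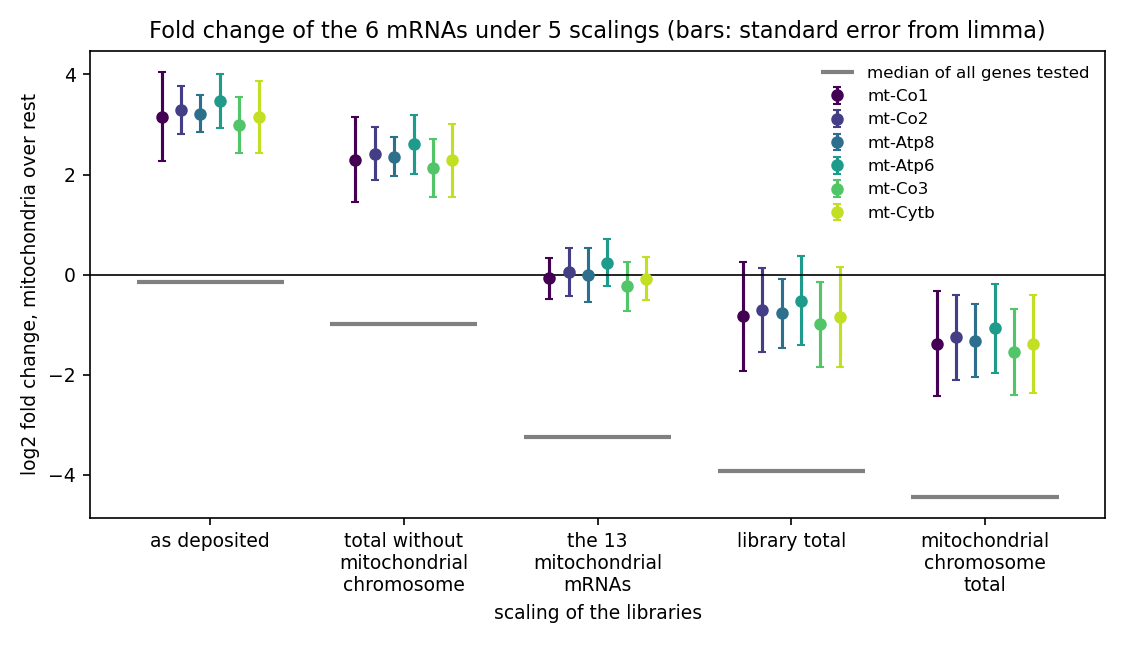
Log2 fold change, mitochondria over rest, of the 6 mRNAs (points, with limma standard errors) under 5 scalings of the libraries, with grey bars at the median of all genes tested. The points are above 0 as deposited (3.0 to 3.47), around 0 when scaled to the 13 mitochondrial mRNAs (-0.23 to 0.24) and below 0 when scaled to the mitochondrial chromosome total (-1.54 to -1.07). A scaling moves the points and the grey bar together, so their distance is bound to stay similar.

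Shares within the mitochondrial chromosome do not depend on the scaling. Together the 6 mRNAs made up 1.68% and 6.57% of the counts of the mitochondrial chromosome in mitochondrial replicates 1 and 2, and 9.30% and 7.69% in rest replicates 1 and 2. Both mitochondrial shares lay below both rest shares, also for each of the 6 mRNAs alone. This was not particular to the 6: the 7 complex I mRNAs together held 1.44% and 5.17% against 7.43% and 5.74%. All 13 mRNAs held 3.11% and 11.7% against 16.7% and 13.4%. For the 6, the size rested on mitochondrial replicate 1, the library with the high rRNA share. The log2 ratio of their mean shares was -1.04 with all libraries, -0.37 without that replicate and -2.34 without mitochondrial replicate 2. With 2 libraries against 2, the smallest p that an exact two-sided permutation test can give is 0.333, so neither this nor the following share can pass 0.05.

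Among the 13 mRNAs alone, the 6 held 53.8% and 56.0% in the mitochondrial and 55.6% and 57.2% in the rest libraries, and the fractions overlapped. mt-Atp6 was the mRNA of the 6 with a higher share in both mitochondrial libraries, at 7.20% and 7.08% against 5.70% and 6.41% in the rest (exact two-sided permutation p = 0.333). mt-Co1 had the opposite pattern, with 24.9% and 24.7% in the mitochondrial and 26.6% and 25.5% in the rest libraries (exact two-sided permutation p = 0.333). The differences of mt-Atp6 and mt-Co1 were small, at 0.24 and -0.07 on the log2 scale. They were not particular to the 6. Of the complex I mRNAs, mt-Nd3 and mt-Nd5 also had a higher share in both mitochondrial libraries, and mt-Nd2 a lower one.

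Of the 6, the other 4 overlapped between the fractions. mt-Cytb held 13.1% and 14.4% in the mitochondrial and 14.3% and 14.7% in the rest libraries. mt-Co2 held 3.96% and 4.29% against 3.92% and 3.99%, and mt-Co3 held 3.88% and 4.75% against 4.37% and 5.82%. mt-Atp8 held 0.704% and 0.759% against 0.672% and 0.805%.

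**Figure D3:**
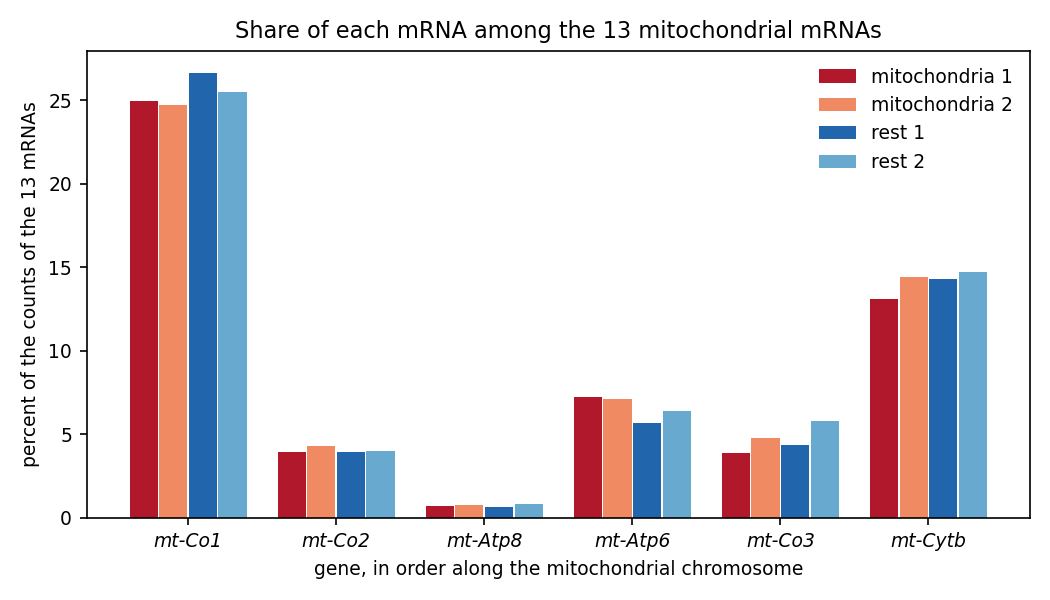
Percent of the counts of the 13 mitochondrial mRNAs taken by each of the 6 mRNAs in the 4 libraries, one bar per library, with the axis starting at 0. mt-Co1 (24.7% to 26.6%) and mt-Cytb (13.1% to 14.7%) take the most, and for mt-Atp6 both red mitochondrial bars stand above both blue rest bars.

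Ratios between 2 of the mRNAs in the same library are also free of the scaling. Of the 15 pairs among the 6, the ratio did not overlap between the fractions in 9, against 43.6% of the 78 pairs of the 13 mRNAs. The exact two-sided permutation p of these 9 was 0.333, the smallest possible, and 0.556 adjusted over the 15 pairs. mt-Atp6 took part in 5 of the 9: relative to each of the other 5 mRNAs it was higher in both mitochondrial than in both rest libraries. The largest difference was to mt-Co3, with log2 ratios of mt-Co3 to mt-Atp6 of -0.89 and -0.58 in the mitochondrial and -0.38 and -0.14 in the rest libraries. With the nuclear copies described below added to each mRNA, 8 of the 15 pairs did not overlap, and the 5 of mt-Atp6 were among them.

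mt-Atp8 and mt-Atp6 are read from a shared mRNA, so their values per length bear on how the counting treats the overlap. Per annotated base, mt-Atp8 was at 0.326 and 0.358 of mt-Atp6 in the mitochondrial libraries and at 0.393 and 0.419 in the rest libraries, a mean of 0.374 ± 0.041 (SD, n = 4). Both mitochondrial ratios were below both rest ratios (exact two-sided permutation p = 0.333). A read of 75 bases that touches the 43 shared bases overlaps both genes. Leaving out the starts of such reads kept 87 start positions in mt-Atp8 and 563 in mt-Atp6. Per usable start, the ratio was 0.725 ± 0.079 (SD, n = 4). For reads trimmed to 50 and 36 bases it would be 0.588 and 0.535. The trimmed lengths of the reads are not in the deposited values, so the divisor that applies is not known.

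Of the 6 mRNAs, 4 share 75-base stretches with annotated copies in the nuclear genome, pieces of mitochondrial DNA that were inserted into chromosomes in the past. In GENCODE M21 the 4 that share most or all of their 75-base stretches with an mRNA are unprocessed pseudogenes in a single row on the minus strand of chromosome 1, chr1:24613189-24616197. That row is 3009 bases long, as is the stretch of the mitochondrial chromosome it mirrors, chrM:6381-9389. Gm28437 matched mt-Co3 over 783 bases, Gm10925 matched mt-Atp6 over 678 and Gm28661 matched mt-Co2 over 681, each with 0 differing bases. Gm29216 (492 bases) held the 3′ part of mt-Co1 from base 1054 on, with 6 differing bases. More diverged pseudogenes lie on chromosome 2. Gm13340 (chr2:22588103-22589647) spans all 1545 bases of mt-Co1 with 37 differing bases and shares 220 stretches of 75 bases with it, and Gm13341 (chr2:22587291-22587962) shares 138 with mt-Co2. Of the usable 75-base starts, 1 in mt-Co3, 2 in mt-Atp6 and 3 in mt-Co2 were found in no other annotated transcript. In mt-Co1 885 of 1468 were, and in mt-Cytb and mt-Atp8 all 1070 and 87. For reads trimmed to 36 bases it would be 608 of 1507 in mt-Co1, 1075 of 1109 in mt-Cytb and all 126 in mt-Atp8.

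The copies were listed at nearly the same normalized counts as the mRNAs. Gm28437 was at 1.01 times mt-Co3 in each of the 4 libraries, with 218084 and 430313 in the mitochondrial and 32497 and 45505 in the rest replicates. Gm28661 was at 1.04 to 1.07 times mt-Co2, and Gm10925 at 1.13 to 1.20 times mt-Atp6. Gm29216, which covers part of mt-Co1, was at 0.875 to 1.13 times mt-Co1 per base. The diverged Gm13340 was lower, at 0.118 to 0.133 times mt-Co1, and Gm13341 at 0.196 to 0.216 times mt-Co2. The methods state that reads aligning to several places were excluded. Reads of 75 bases cannot tell mt-Co2, mt-Co3 or mt-Atp6 from their copies at almost any position, and yet in every library both genes of each pair hold at least the 28834 normalized counts of mt-Co2 in rest replicate 1. How these reads were assigned was not tested, and the values of mt-Co1, mt-Co2, mt-Co3 and mt-Atp6 are uncertain to that extent. mt-Cytb and mt-Atp8 share no 75-base stretch with an annotated nuclear transcript. All 204 bases of mt-Atp8 nevertheless fall within the part of the mitochondrial chromosome that the chromosome 1 row mirrors. Of these, 161 fall opposite an unannotated stretch of the row, chr1:24614652-24614884, whose sequence was not analysed here. The other 43, shared with mt-Atp6, are part of the match of Gm10925 with 0 differing bases. The values of mt-Atp8 may thus be uncertain as well, which was not tested.

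**Figure D4:**
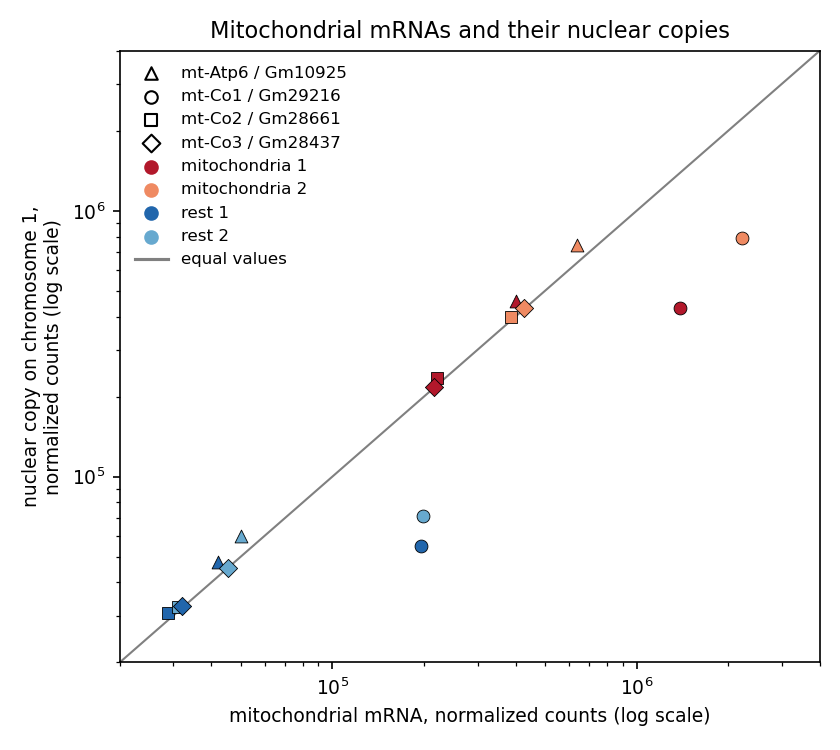
Normalized counts of 4 nuclear copies on chromosome 1 against those of their mitochondrial mRNAs, on log axes, with a symbol per pair, a colour per library and a grey line of equal values. Gm28437, Gm28661 and Gm10925 lie on or just above the line (1.01 to 1.20 times the mRNA), and Gm29216, which covers a part of mt-Co1, lies below it.

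Adding the 4 chromosome 1 copies to their mRNAs left the fold changes at 2.99 to 3.46 on the log2 scale. mt-Co2 was then at 3.29 ± 0.58 and mt-Atp6 at 3.46 ± 0.69 (SE, limma adjusted p = 0.0551 and 0.0616), outside the threshold. mt-Atp8 still passed, as the 1 of 6 called beside 2.08% of all genes. It has no annotated copy to add, so its values were unchanged by this step. The chromosome 1 stretch opposite 161 of its bases is unannotated and has no counts. The call of mt-Atp8 in this step thus does not show that it is free of such copies.

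The study lists RT-qPCR oligonucleotides for 2 of the 6 mRNAs, mt-Atp6 (ATP6) and mt-Co1 (COXI). The 4 are shown because each also matches an annotated nuclear pseudogene. The ATP6 pair matched bases 42 to 65 (chrM:7968-7991) on the sense and 174 to 198 (chrM:8100-8124) on the antisense strand of mt-Atp6, and both were also found in Gm10925. The COXI oligonucleotides matched bases 899 to 923 (chrM:6226-6250) and 965 to 989 (chrM:6292-6316) of mt-Co1, both on the sense strand as listed. The first was also found in the pseudogene Gm11512, and the second in Gm11512 and Gm13340.

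ATP6 1: aataggattcccaatcgttgtagc
ATP6 2: tcgtccttttggtgtgtggattagc
COXI 1: acacacgagcttactttacatcagc
COXI 2: gctgacttgcaaccctacacggagg

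Levels of the 6 mRNAs can be ordered only per length. Per annotated kilobase, the order was mt-Co1, mt-Cytb, mt-Atp6, mt-Co2, mt-Co3 and mt-Atp8. The top level was that of mt-Co1, at 899510 and 1438045 normalized counts per kilobase in the mitochondrial and 126766 and 128469 in the rest libraries. The lowest was that of mt-Atp8, at 192284 and 334544 in the mitochondrial and 24225 and 30740 in the rest libraries. mt-Co1 was 1.27 to 1.41 times mt-Cytb in 4 of 4 libraries, and mt-Cytb was 1.08 to 1.49 times mt-Atp6. mt-Co2 and mt-Co3 did not differ beyond their spread, with ratios from 0.787 to 1.17 and mt-Co2 higher in 3 of 4 libraries. mt-Co3 was 1.44 to 1.88 times mt-Atp8 in all 4.

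The lower places of this order moved with the length used. Per usable 75-base start, mt-Atp8 came in place 4, at 1.20 to 1.41 times mt-Co2, and mt-Cytb and mt-Atp6 no longer differed in all libraries, with ratios from 0.958 to 1.32. Adding the copies gives no counts to mt-Cytb and mt-Atp8, and so by itself lowers them beside the others. With the copies added, per annotated kilobase, mt-Co1 and mt-Atp6 led without differing beyond their spread (ratios 0.933 to 1.23, mt-Co1 higher in 2 of 4 libraries). Behind them mt-Cytb and mt-Co2 did not differ either (0.958 to 1.08, mt-Cytb higher in 2 of 4). Per usable start with the copies added, mt-Atp6 was above mt-Co1 in 3 of 4 libraries (0.932 to 1.23), and mt-Co2 and mt-Cytb again did not differ beyond their spread (0.970 to 1.09). By mean place over the libraries, mt-Co1 was in place 1 or 2 under every length tried, and mt-Co3 in place 5 or 6.

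**Figure D5:**
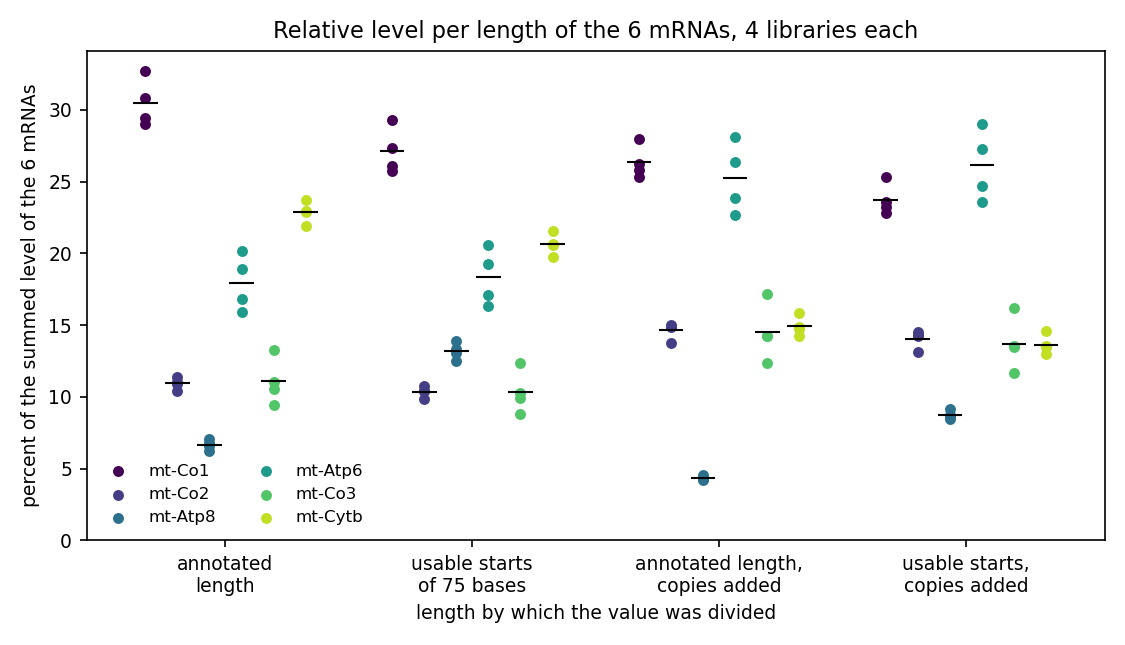
Level per length of each of the 6 mRNAs as percent of their summed level, for 4 ways of choosing the length, with a point per library and a black bar at the mean of the 4. mt-Co1 leads under annotated length and usable starts, mt-Atp6 rises beside it once the nuclear copies are added, and mt-Atp8 is lowest in 3 of the 4 groups of points. Where copies are added, mt-Cytb and mt-Atp8 gain no counts.

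Outside the 6, the genes whose values followed each mRNA most closely were mostly annotated nuclear pseudogenes. Likeness was the distance between log2 profiles over the 4 libraries after centring, where 0 is the same shape, searched over the 5556 genes with a mean above 50 normalized counts, and the genes named first are those outside the 6. For mt-Co3 the nearest were Gm28437 (0.00705), mt-Nd1 (0.0775) and Gm13339 (0.217). For mt-Co2 they were Gm28661 (0.0416), Gm13341 (0.116) and mt-Nd4 (0.172). For mt-Atp6 they were Gm10925 (0.0640), Gm28438 (0.0953) and Gm4076 (0.119). For these 3 mRNAs the nearest gene was the identical copy, also when the rest of the 6 is counted.

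Outside the 6, the nearest profiles to mt-Co1 were mt-Nd4 (0.0978), Gm13340 (0.141) and Gm28661 (0.148). Those to mt-Cytb were Gm13341 (0.141), Gm28661 (0.150) and Gm13340 (0.178), and those to mt-Atp8 were Gm29216 (0.0605), Gm13341 (0.159) and Gm4076 (0.196). Among the 6 themselves, mt-Co1 and mt-Cytb were each other's nearest (0.129), closer than the pseudogene nearest to mt-Cytb. mt-Cytb was also the nearest of the 6 to mt-Co2 (0.137) and to mt-Atp8 (0.171), mt-Co2 to mt-Atp6 (0.231) and mt-Atp8 to mt-Co3 (0.277). The 4 points of each profile share their libraries and are a description only.

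In base composition, the GC content of the 6 mRNAs ran from 31.9% in mt-Atp8 to 39.9% in mt-Co1. Guanine was scarce, from 5.88% in mt-Atp8 to 16.1% in mt-Co1, and cytosine more common, from 23.8% to 26.9%. The mRNA with the lowest GC content was thus also the shortest, and the one with the highest GC content the longest.

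The nuclear-encoded subunits of the same complexes moved with the 6 mRNAs under the deposited scaling, by less. Of 43 genes listed, 41 were tested, 24 rose and 0 fell in limma's test, against 2.16% of all genes called higher, and all 41 had a log2 fold change above 0. Their median was 1.72, beside 3.19 for the 6 mitochondrial mRNAs and -0.14 for all genes tested. Scaled to the library total, the median of the 41 was -2.27 and all 41 were called lower, as were 98.9% of all genes. The distance of the median of the 41 from the median of all genes was 1.62 to 1.86 under the 6 scalings, which by their nature move both together. Without the trend in the model, 2 of the 41 were called higher, against 0.198% of all genes. They were 1 of 9 in complex III, 0 of 14 in complex IV and 1 of 18 in complex V. With any library left out, which leaves 1 library in a fraction, the median of the 41 was 1.47 to 1.92.

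In complex III, 4 of 9 nuclear-encoded subunits rose, against 2.16% of all genes tested. The median of the 9 was 1.78 on the log2 scale, beside 3.15 for mt-Cytb. The highest were Uqcrb at 2.33 ± 0.17 and Uqcr11 at 2.20 ± 0.25 (SE, limma adjusted p = 0.0427 for both), small subunits of the complex. The lowest were the core proteins Uqcrc2 at 0.64 ± 0.20 (adjusted p = 0.125) and Uqcrc1 at 0.82 ± 0.20 (adjusted p = 0.0814), which did not pass. Uqcrb was measured at 1921 and 1656 normalized counts in the mitochondrial and 354 and 353 in the rest libraries.

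In complex IV, 11 of the 14 tested rose, against 2.16% of all genes tested. The median of the 14 was 1.77, beside 3.0 to 3.28 for the 3 mitochondrial subunits. The highest were Cox6a2, the heart and muscle form of subunit VIa, at 2.20 ± 0.34 (SE, limma adjusted p = 0.0487), and Cox6c at 2.17 ± 0.27 (adjusted p = 0.0427). The lowest were Cox6a1, the form of subunit VIa found in most tissues, at 0.65 ± 0.42 (adjusted p = 0.350), and Ndufa4 at 1.46 ± 0.18 (adjusted p = 0.0427). Cox6a1 was low throughout, at 27 and 48 normalized counts in the mitochondrial and 27 and 19 in the rest libraries.

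In complex V, 9 of 18 rose, against 2.16% of all genes tested. The median of the 18 was 1.61, beside 3.47 for mt-Atp6 and 3.22 for mt-Atp8. The highest were Atp5mpl, a small membrane subunit, at 2.65 ± 0.23 and Atpif1, the inhibitor that blocks ATP breakdown by the complex, at 2.57 ± 0.21 (SE, limma adjusted p = 0.0427 for both). The lowest were the catalytic head subunits Atp5b at 0.64 ± 0.24 (adjusted p = 0.163) and Atp5a1 at 0.70 ± 0.25 (adjusted p = 0.148), which did not pass. Atp5a1 was measured at 10252 and 7367 normalized counts in the mitochondrial and 5602 and 5122 in the rest libraries. For the nuclear-encoded subunits replicate 1 was the higher mitochondrial library, with sums of 61308 and 46528 normalized counts over the 3 complexes in replicates 1 and 2, whereas for the 6 mitochondrial mRNAs it was the lower, with sums of 2998395 and 5036542.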

How the data were processed

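RNA of mitochondrial and rest fractions of mouse heart (2 libraries each, grouped by the labels) was analysed from 1 deposited table. The authors trimmed the reads, used STAR for the alignment to GRCm38 (mm10), obtained counts per gene from featureCounts and divided them by DESeq2 size factors; the deposited score is this count, rounded to a whole number. The submitters' processing notes name Trimmomatic 0.39, STAR 2.7.10a, featureCounts 2.0.2 and DESeq2 1.30.1. The use of strand is not given in the sources used here. Since the values are not counts, limma 3.58.1 (R 4.3.3) with a mean-variance trend was fitted to log2(normalized count + 1) over the 12150 genes that reached 10 normalized counts in 2 or more libraries, two-sided, adjusted by Benjamini-Hochberg, with calls at 0.05. The fit was tested on simulated data. Other scalings, filters, pseudocounts (0.1, 10), the trend, the replicate block and each library were varied. Sequences and 75-base matches came from GENCODE M21 transcripts, in Python 3.11.15. Of each nuclear list, the 2 genes with the highest and the 2 with the lowest fold change are named, and of each mRNA the 3 nearest profiles and the annotated nuclear copies. The members and lists were chosen with earlier results of these data known.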

Additional observations from a re-analysis of the deposited data

How the results depend on the processing

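With 2 libraries per fraction, calls near the threshold moved with most settings. Over all genes, 262 were higher and 169 lower in mitochondria. Scaled to the library total the counts were 2 and 12022, to the mitochondrial chromosome total 2 and 12076, to the total without the mitochondrial chromosome 129 and 3819, and to the 13 mitochondrial mRNAs 5 and 11856. Scaled to the total without that chromosome, mt-Co3 (2.13) passed as well. Without a filter 279 were higher and 630 lower, with a mean above 50 normalized counts 790 and 670, with a pseudocount of 0.1 0 and 0 (1694 and 1754 at an unadjusted p under 0.05 in limma, the tool used throughout), with a pseudocount of 10 536 and 580, and without the trend 24 and 143. Leaving out any library gave 0 and 0.

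Under 3 scalings the log2 fold changes of the 6 mRNAs turned or vanished. Scaled to the library total they were -0.84 (mt-Cytb), -0.83 (mt-Co1), -0.70 (mt-Co2), -0.99 (mt-Co3), -0.52 (mt-Atp6) and -0.77 (mt-Atp8). Scaled to the mitochondrial chromosome total they were -1.39, -1.38, -1.25, -1.54, -1.07 and -1.32 in the same order. Scaled to the 13 mRNAs they were -0.0773, -0.0698, 0.0584, -0.23, 0.24 and -0.0093. The following settings changed calls, not directions. With a mean above 50, mt-Cytb (3.15), mt-Co1 (3.16) and mt-Co3 (3.0) passed as well, and with a pseudocount of 10 mt-Cytb (3.15) and mt-Co3 (3.0). Calls were lost for mt-Co2 (3.28) and mt-Atp6 (3.47) without a filter, for mt-Co2 (3.28), mt-Atp6 (3.47) and mt-Atp8 (3.22) with a pseudocount of 0.1, for mt-Co2 (3.28) and mt-Atp8 (3.22) without the trend, where mt-Co1 (3.16) passed, and for mt-Co2 (3.29) and mt-Atp6 (3.46) with the nuclear copies added, an alternative chosen after seeing the data. With 1 library left out, the values ranged from 2.74 to 3.56 (mt-Cytb), 2.82 to 3.49 (mt-Co1), 2.88 to 3.69 (mt-Co2), 2.50 to 3.49 (mt-Co3), 3.13 to 3.80 (mt-Atp6) and 2.82 to 3.62 (mt-Atp8), the lone library being assumed to vary like the others.

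By their labels, the libraries of the 2 fractions share only a replicate number, which does not say whether they came from the same homogenate. Deviations of replicate 2 from replicate 1 correlated across genes at r = 0.13 between the fractions, with 2 pairs. That value does not decide whether the libraries were paired. With the replicate block 470 genes were higher and 309 lower, and mt-Co3 (3.0) passed; the block changed no other call of the 6.

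As shares of the mitochondrial chromosome in place of the 13 mRNAs, the log2 ratios of mitochondria over rest were -1.06 (mt-Cytb), -1.10 (mt-Co1), -0.93 (mt-Co2), -1.16 (mt-Co3), -0.78 (mt-Atp6) and -0.99 (mt-Atp8). With 1 library left out, the ratios among the 13 mRNAs ranged from -0.15 to -0.0097 (mt-Cytb), -0.10 to -0.04 (mt-Co1), -0.00022 to 0.12 (mt-Co2), -0.43 to -0.02 (mt-Co3), 0.16 to 0.33 (mt-Atp6) and -0.14 to 0.12 (mt-Atp8). By level per usable start of 75 or 50 bases mt-Atp8 ranked 4, mt-Co2 5 and mt-Co3 6. With the copies added, per annotated kilobase, mt-Atp6 ranked 2 and mt-Cytb 3, and per usable start mt-Atp6 1, mt-Co1 2, mt-Co2 3 and mt-Cytb 4, by mean place over the libraries; mt-Cytb and mt-Co2 tied within their spread in both. The mt-Atp8 to mt-Atp6 ratio was 0.725, 0.588 and 0.535 for starts of 75, 50 and 36 bases. Per annotated base it was 0.359 to 0.39 with 1 library left out. With the copies added it was 0.173 per base, a setting that adds counts to mt-Atp6 and none to mt-Atp8.

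Limits: 2 libraries per fraction allow no exact test to pass, and the rest reads could not be restored, so no count test was run. Uniqueness in the genome was planned and not run, since no genome was used here; annotated transcripts took its place, and unannotated nuclear copies were not searched. The assignment of reads shared with the copies and the use of strand were not tested.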
